A study of Mus musculus with 70 samples.

Results

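The 10 genes of major histocompatibility complex (MHC) class I antigen presentation described here were followed through 4 count tables of B16F10 mouse melanoma tumors: the heavy chains H2-K1 and H2-D1, the light chain B2m, the peptide transporter genes Tap1 and Tap2, the loading factor gene Tapbp, the immunoproteasome genes Psmb8, Psmb9 and Psmb10, and the regulator Nlrc5. They were chosen by name. They are 10 of the 55487 gene lines in each table, and all 10 passed the filter on low counts in every table.

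Class I molecules display short peptides of a cell's own proteins to CD8+ T cells. The proteasome cuts the peptides, the TAP transporter carries them into the endoplasmic reticulum, and the peptide-loading complex places them on a heavy chain bound to β2-microglobulin. Interferon-γ raises most genes of this route, in part through IRF1, and NLRC5 acts at the promoters of class I genes. B16F10 is a melanoma line known for low class I display at rest.

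C57BL/6 mice, male and female and 6 to 8 weeks old at purchase, carried B16F10 tumors on both flanks. One tumor received partial histotripsy, a focused ultrasound ablation that breaks tissue mechanically, or a sham procedure. Control tumors came from sham-treated mice, histotripsy-treated tumors were ablated on that flank, and histotripsy-abscopal tumors were the untreated tumors on the opposite flank. Tumors were taken 3 or 7 days later and sorted into CD45+ (leukocyte) and CD45- (other) cells. No allele or added drug distinguished the groups, and part of each treated tumor was left intact by design.

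The 70 libraries fell into 12 groups. CD45- cells of day 3 gave 4 libraries from control, 7 from histotripsy-treated and 7 from histotripsy-abscopal tumors, and those of day 7 gave 11, 3 and 4. For CD45+ cells the numbers were 4, 6 and 7 at day 3, and 10, 3 and 4 at day 7. The labels name neither the mouse nor the culture behind a library, so treated and abscopal tumors may share a mouse and the CD45+ and CD45- libraries may share a tumor. The tests between fractions treated libraries as independent, and p-values measure only the spread between these samples. Each control group serves both the treated and the abscopal comparison.

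Libraries held 887798 to 3820705 counts (median 2105674), and 4, all CD45+ at day 7, held under 1000000. Ptprc, which encodes CD45, had 0 to 3 counts in CD45- libraries and 929 to 2916 in CD45+ libraries. The 7 melanoma markers summed to 23402 to 36892 CPM (counts scaled to a library total of 1000000) in CD45- libraries of day 3 and 29054 to 35199 at day 7. In CD45+ libraries they summed to 91.5 to 2278 and 113 to 473 CPM. The sort labels were therefore borne out by these markers. The CD45- libraries also held stromal transcripts, since 5 fibroblast markers summed to between 13.3 and 13238 CPM at day 3 and between 15.5 and 3993 CPM at day 7.

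Of the 10 genes, 7 lie on chromosome 17, 2 on chromosome 8 and 1 on chromosome 2. In GRCm38 with GENCODE M21 names, Tapbp is at chr17:33915899-33929292 (+), H2-K1 at chr17:33996017-34000347 (-), and H2-D1 at chr17:35262730-35267499 (+). Psmb9 at chr17:34181987-34187764 (-) and Tap1 at chr17:34187553-34197225 (+) run in opposite directions and share 212 bases at their 5′ ends, followed by Psmb8 at chr17:34197721-34201454 (+) and Tap2 at chr17:34203527-34216321 (+). B2m is at chr2:122147686-122153083 (+), Psmb10 at chr8:105935735-105938444 (-) and Nlrc5 at chr8:94434356-94527272 (+). All 10 are protein-coding.

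The libraries were read from the 3′ ends of transcripts, so similar ends can be confused. Of all 50-base words in the last 300 bases of the transcripts, 9.54% in H2-K1 and 13.5% in H2-D1 also occur in another gene, among them each other. The values were 4.92% for Tap1 and 5.07% for Tapbp, and 0 for the other members. Genes on the opposite strand reach the last 300 bases of B2m (Patl2), Psmb8 (Gm20496) and Psmb10 (Gm16156). The strand setting of the counting is not given in the sources used here, so reads of these pairs cannot be told apart.

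Promoter sequences show what H2-K1, H2-D1 and B2m share beyond their function. RefSeq promoters of GRCm38.p6, from 250 bases before to 50 bases after each start, were found for 8 of the 10 members, not for Tap2 and Nlrc5. These 3 genes carry an X2 box (TGACG) and a Y box (ATTGG) with 20 bases between them, which is the core of the SXY module known to recruit the NLRC5-containing complex. The spacing was read from the members' own promoters, so their match is a description. The cores are shown 5′ to 3′ on the strand of the gene, with both boxes in capitals:
H2-K1, chr17:34000359-34000388 (-): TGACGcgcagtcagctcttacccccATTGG
H2-D1, chr17:35262993-35263022 (+): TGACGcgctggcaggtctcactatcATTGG
B2m, chr2:122147609-122147638 (+): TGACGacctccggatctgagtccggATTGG

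The H2-K1 core spans positions -41 to -12 from the start, the B2m core -78 to -49 and the H2-D1 core -101 to -72, where it lies inside a GENCODE exon of another H2-D1 model. Between H2-K1 and H2-D1, 23 of the 30 bases are identical, against 13 between H2-K1 and B2m and 12 between H2-D1 and B2m. On both strands, the pair of boxes at this spacing occurred in 31 of 32851 RefSeq promoters (0.0944%), and H2-M3, a further class I gene, was among them.

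Longer stretches of H2-K1 and B2m are shown because they also hold the upstream elements. Capitals mark, in order along H2-K1, a κB consensus, an interferon-regulatory-factor (IRF) element, the X2 box and the Y box. In B2m the IRF element comes before the κB consensus.
H2-K1, chr17:34000348-34000473 (-): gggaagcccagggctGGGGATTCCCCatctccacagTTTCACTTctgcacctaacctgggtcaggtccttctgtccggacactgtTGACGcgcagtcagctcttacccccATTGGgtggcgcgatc
B2m, chr2:122147535-122147653 (+): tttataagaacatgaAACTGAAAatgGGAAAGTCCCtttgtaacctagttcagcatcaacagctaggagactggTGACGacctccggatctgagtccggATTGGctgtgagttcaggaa

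The IRF element was searched as AANNGAAA on both strands and was found in 23.9% of all promoters, and the κB consensus in 8.46%. Of the 8 members with an entry, H2-K1, H2-D1 and B2m held each of them. A GAS element (TTCNNNGAA), named for interferon-γ activation, occurred in 8.3% of promoters and in Psmb8 alone among the members. Tap1 and Psmb9 held an X2 box and a Y box without that spacing. The X2 box by itself was in 20.8% and the Y box in 37.4% of all promoters, so single boxes are common.

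All 10 genes were higher in CD45+ than in CD45- cells at both days. The median log2 difference over the 10 was 2.69 at day 3 and 2.81 at day 7, while the median over all genes tested was 0.04 and 0.01. By the quasi-likelihood test of edgeR, adjusted by Benjamini-Hochberg over all genes tested, 10 of 10 were called at an adjusted p under 0.05 on each day. Calls were common there, since 83.7% of 12392 genes at day 3 and 82.8% of 12863 at day 7 were called, of which calls higher in CD45+ were 43.1% and 42.2% of the genes tested. The adjusted p ranged from 4.7e-19 to 6.8e-08 at day 3 and from 1.3e-18 to 1.2e-08 at day 7. In bulk samples of mixed cells, a smaller share of cells of one type and less RNA per cell cannot be told apart.

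The heavy chains and the light chain form the displayed molecule. H2-K1 was at 117 to 528 CPM (median 268) in the 36 CD45- libraries and at 1024 to 2484 CPM (median 1958) in the 34 CD45+ libraries. Its log2 difference was 3.02 (SE 0.16) at day 3 and 3.0 (SE 0.18) at day 7, and the lowest CD45+ library stood above the highest CD45- library. H2-D1 was at 58.0 to 221 CPM (median 121) in CD45- and 369 to 1002 CPM (median 734) in CD45+ libraries, and its ranges did not overlap either. B2m, which encodes the light chain shared by all class I heavy chains, was at 414 to 2033 CPM (median 1116) and 2420 to 5824 CPM (median 4388). The log2 differences at day 3 and day 7 were 2.67 and 2.61 for H2-D1, and 2.24 and 2.15 for B2m.

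The transporter genes encode both subunits of TAP. Tap1 was at 9.15 to 106 CPM (median 47.5) in CD45- and 97.7 to 443 CPM (median 309) in CD45+ libraries. One CD45+ library of a treated tumor at day 3, with 97.7 CPM, kept the Tap1 ranges from separating at that day. Tap2 was the sparsest member, at 0 to 9.52 CPM (median 1.96) in CD45- libraries, where 5 of 36 held no count and 15 held at most 3. In CD45+ cells Tap2 was at 1.29 to 32.0 CPM (median 13.1), and its ranges overlapped at both days. The log2 difference was 2.79 and 2.91 for Tap1, and 2.64 (SE 0.38) and 2.78 (SE 0.37) for Tap2. Tapbp, whose product tapasin bridges TAP and the heavy chain, was at 19.8 to 131 CPM (median 68.3) against 246 to 562 CPM (median 398), without overlap.

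The immunoproteasome subunits replace their constitutive counterparts in interferon-exposed and lymphoid cells. Psmb8 had the highest of the 10 differences, at 3.45 (SE 0.26) and 3.62 (SE 0.26), with 1.10 to 53.1 CPM (median 21.2) in CD45- and 91.6 to 315 CPM (median 222) in CD45+ libraries. Psmb9 was at 2.34 to 35.8 CPM (median 15.2) and 18.8 to 143 CPM (median 81.6). Psmb10 had the lowest difference, at 1.45 (SE 0.14) and 1.53 (SE 0.11), with 29.6 to 88.3 CPM (median 52.7) and 37.4 to 212 CPM (median 131). Ranges of Psmb9 and Psmb10 overlapped at day 3 and did not at day 7. Nlrc5, a transcriptional regulator of class I genes, was at 1.69 to 18.7 CPM (median 8.65) and 31.3 to 84.7 CPM (median 56.1), without overlap. In all, 6 of 10 genes had separate ranges at day 3, with Tap1, Tap2, Psmb9 and Psmb10 overlapping, and 9 of 10 at day 7, with Tap2 overlapping. Among all genes tested, 16.2% and 19.1% had every CD45+ library above every CD45- library.

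**Figure D1:**
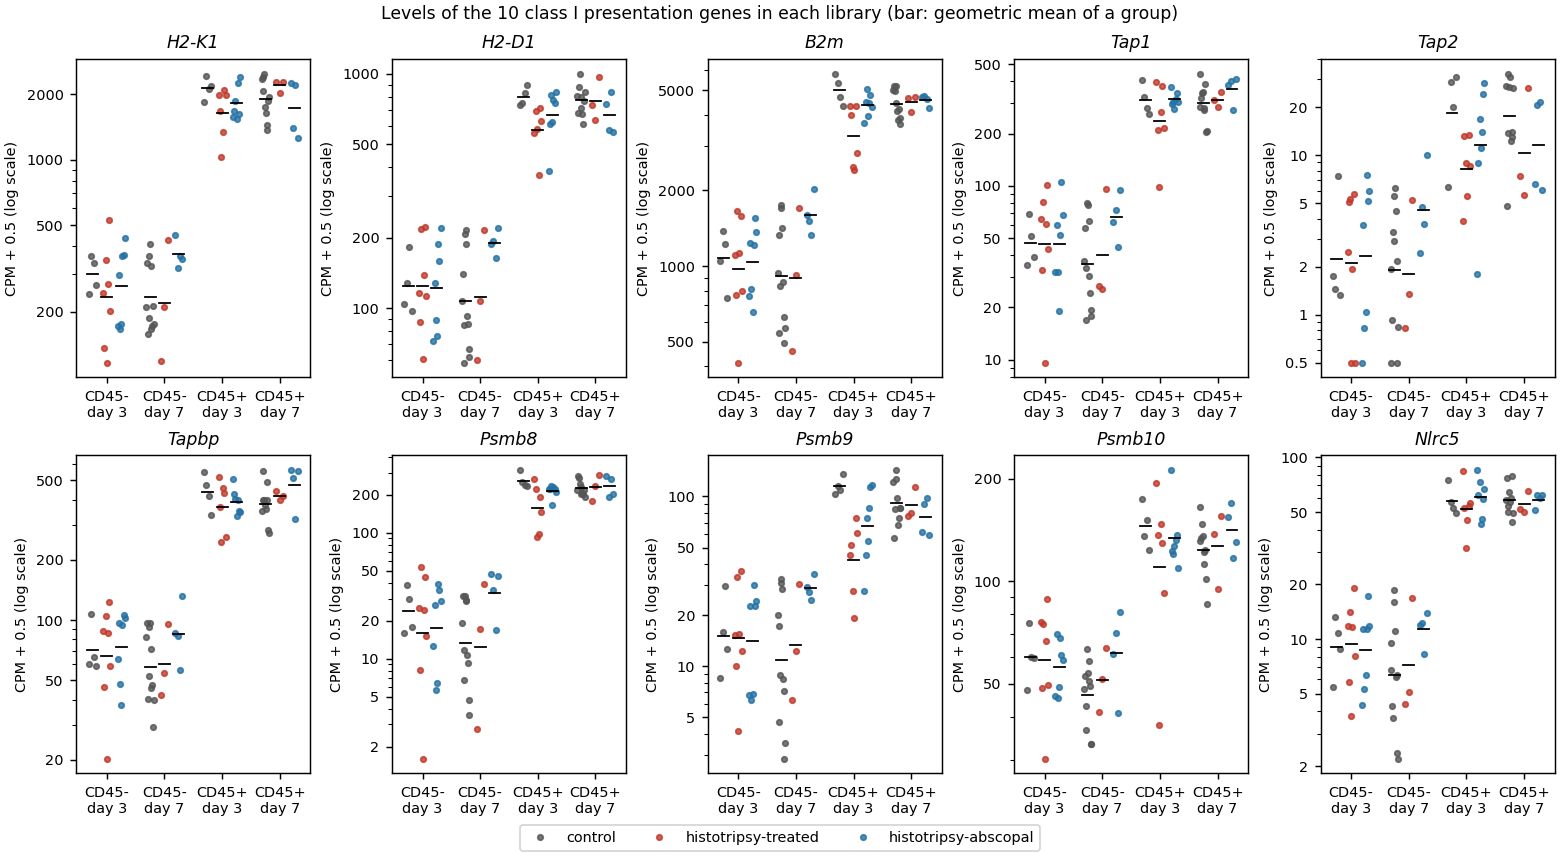
Level of each of the 10 genes in each library, as CPM plus 0.5 on a log axis, by fraction and day; gray, control; red, histotripsy-treated; blue, histotripsy-abscopal; bars, geometric mean of a group. CD45+ libraries lie above CD45- libraries, with overlap for Tap2 at both days and for Tap1, Psmb9 and Psmb10 at day 3.

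**Figure D2:**
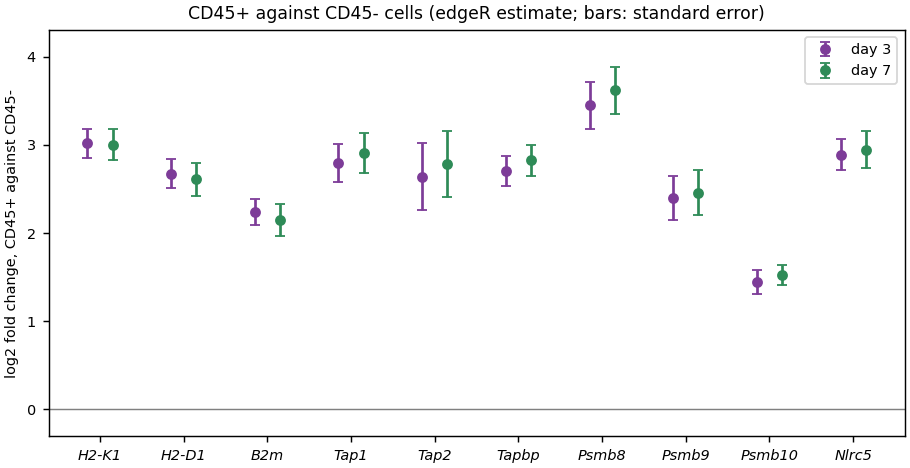
Log2 difference of CD45+ against CD45- cells for each gene at day 3 (purple) and day 7 (green), with the standard error of the edgeR estimate. Psmb8 is highest at 3.45 and 3.62, and Psmb10 lowest at 1.45 and 1.53.

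Other genes of the route did not follow the members uniformly across fractions. Of the 7 further proteasome genes, 3 were called higher in CD45+ cells and 2 lower at day 3, and 3 and 3 at day 7. Psme1 and Psme2, which encode the interferon-inducible proteasome activator, were higher by 2.21 (SE 0.12) and 2.25 (SE 0.16) at day 3. Psmb7, a constitutive catalytic subunit gene, was at -0.62 (SE 0.19). Of the 5 loading and trimming genes, 3 were called higher and 2 lower at day 3, and 2 and 1 at day 7. Canx, which encodes the chaperone calnexin, was called lower in CD45+ cells at -0.99 and -1.01, whereas Tapbpl, which encodes a tapasin-related peptide editor, was higher by 2.3 at both days.

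The list of 11 other class I genes had 10 tested, of which 9 were called higher and 1 lower at each day. Mr1, a presenter of small metabolites, was the lower one, at -1.30 and -0.74, and H2-M3 was higher by 4.22 and 4.56. The interferon signaling list had 16 called higher and 1 lower of 18 at day 3, and 17 called higher of 19 at day 7. Of the 16 interferon-stimulated genes, 14 and 15 were called higher. Ifng, the cytokine gene itself, had 0 counts in 34 of the 36 CD45- libraries and 1 in the other two, against 22.3 to 171 CPM in CD45+ libraries of day 3 and 60.9 to 206 CPM at day 7. H2-Q7, a nonclassical class I gene, was at 0 to 8.79 CPM in CD45- libraries and 156 to 552 CPM in CD45+ libraries.

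Between treatments, 1 of 120 tests on members was called. These were 12 comparisons of 10 genes, 3 in each fraction and day. Psmb9 was lower in CD45+ cells of histotripsy-treated tumors than of control tumors at day 3. With the filter on low counts, no member was called in the other 11 comparisons by edgeR, DESeq2 or limma-voom. In those 11, edgeR gave an unadjusted p under 0.05 to 6 of the tests on members. Without that filter, edgeR called H2-K1, H2-D1, B2m and Psmb8 in CD45- abscopal against control tumors at day 7. It then also called Psmb9 for treated against abscopal tumors in CD45+ cells at day 3.

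Psmb9 encodes a catalytic subunit of the immunoproteasome. In CD45+ cells at day 3 it was at 103, 114, 109 and 135 CPM in the 4 control tumors. The 6 histotripsy-treated tumors were at 18.8 to 74.6 CPM (median 48.0), all below the lowest control. The 7 histotripsy-abscopal tumors were at 27.2 to 116 CPM (median 74.3) and overlapped both groups. Against control, the log2 difference was -1.12 (SE 0.32, adjusted p = 0.0344 by edgeR) in treated and -0.56 (SE 0.31, adjusted p = 0.674) in abscopal tumors. In that treated comparison 7.8% of 10264 genes were called and 1.59% were called lower, beside 1 of 10 members. For abscopal tumors 0% of genes were called, and for treated against abscopal tumors 5.44%, with no member called and Psmb9 at -0.56 (SE 0.29, adjusted p = 0.306).

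The Psmb9 call was marginal and depended on which libraries were kept. With each of the 10 treated and control libraries left out in turn, its log2 difference stayed between -1.26 and -0.96, and the call remained in 4 of 10 fits. It was lost without control replicate 1, 2, 3 or 4 (adjusted p = 0.0526, 0.0711, 0.0734 and 0.110) and without treated replicate 1 or 3 (adjusted p = 0.0535 and 0.0678). At day 7 the same comparison gave -0.07 (SE 0.22), and the change between days was 1.07 (SE 0.41, adjusted p = 0.166), so a difference between days was not called.

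Markers of other leukocytes moved beside Psmb9 in those libraries. The 5 T cell markers summed to 83.8 to 435 CPM in treated and 446 to 849 CPM in control tumors, without overlap, and 2 of 5 were called lower. The 6 neutrophil markers summed to 1272 to 26503 CPM in treated and 350 to 2672 CPM in control tumors, and 4 of the 5 tested were called higher. A row annotated as ribosomal RNA took 7.17 to 11.7% of counts in treated and 6.99 to 9.44% in control libraries. Across libraries, with group means removed, Psmb9 had r = -0.49 with that share at day 3 (n = 17). The part of these in the Psmb9 result was not tested.

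Other members of the CD45+ day 3 comparison were less far apart. H2-D1 was at 734, 752, 824 and 896 CPM in control and at 369 to 717 CPM (median 604) in treated tumors, so its CPM ranges also did not overlap. The share of all genes with separate CPM ranges in this comparison was not computed. The separation of Psmb9 and H2-D1 therefore cannot be set against it. On the scaled values of the edgeR fit, however, H2-D1 differed by -0.21 (SE 0.20, adjusted p = 0.549). B2m was at 5824, 5330, 4695 and 4341 CPM in control and 2420 to 4347 CPM in treated tumors, which overlap by 1 library, and differed by -0.37 (SE 0.17, adjusted p = 0.190). Tap2 was at 5.77, 28.1, 19.6 and 30.6 CPM in control and 3.37 to 13 CPM in treated tumors, with a difference of -1.12 (SE 0.48, adjusted p = 0.159). The 10 members had a median of -0.18, against -0.01 over all genes. Scaled by library totals alone, these were -0.39 and -0.22, so on that scale all genes shifted together.

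Of the pathway lists in that comparison, H2-Q10 was the only called gene. H2-Q10, a nonclassical class I gene, was at 12.6 to 62.1 CPM (median 24.3) in treated and 5.77 to 15.7 CPM in control tumors, a log2 difference of 1.92 (SE 0.49, adjusted p = 0.0187). Against abscopal tumors it was 1.94 (SE 0.40, adjusted p = 0.00573). No gene of the loading, proteasome, interferon signaling or interferon-stimulated lists was called there. So 1 member was called lower and 1 of the 8 other class I genes tested was called higher. Of all 10264 genes tested, 7.8% were called and 1.59% were called lower. With so few genes, 1 call each way does not set class I genes apart.

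In CD45- cells at day 7, all 10 genes were higher in abscopal than in control tumors, and none passed the test with the filter on low counts. The outcome depended on that filter, since H2-K1, H2-D1, B2m and Psmb8 were called by edgeR without it. The median log2 difference was 0.65, against -0.01 over all genes, and 5 of 10 had an unadjusted p under 0.05 by edgeR, a count that stood at 1 with DESeq2 and 6 with limma-voom. The adjusted p by edgeR ranged from 0.484 to 0.753, with 0.291% of 10996 genes called at the adjusted threshold. That share is no background for the counts by unadjusted p. The members also varied together across these libraries (median pairwise r 0.86), so the 10 tests are not independent.

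H2-K1 was at 448, 319, 361 and 350 CPM in the 4 abscopal tumors and 157 to 411 CPM (median 210) in the 11 control tumors, with a difference of 0.55 (SE 0.26). B2m was at 1603, 1512, 1332 and 2033 CPM in abscopal and 496 to 1747 CPM (median 867) in control tumors, with a difference of 0.65 (SE 0.30). Psmb8 was at 46.8, 34.4, 16.4 and 44.4 CPM against 3.04 to 31.0 CPM (median 11.1), with a difference of 1.05 (SE 0.48). Every abscopal value of these 3 genes was above the control median, 3 of the 4 Psmb8 values were above the highest control, and the ranges of every member overlapped. H2-D1 differed by 0.64 (SE 0.31) and Psmb10 by 0.37 (SE 0.17). Leaving out each library in turn kept all 10 positive, with a median between 0.51 and 0.76 and none called, and left 0 to 7 members with an unadjusted p under 0.05. That number was 0 without abscopal replicate 1 or 4 or control replicate 3, 4, 10 or 11, and 1 without abscopal replicate 2 or control replicate 8 or 9. Abscopal replicate 4 left out gave the lowest of these medians.

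Values that moved with this pattern are given here. The 16 interferon-stimulated genes summed to 646 to 1012 CPM in abscopal and 320 to 890 CPM in control tumors, and 15 of 16 were higher, with Cxcl9, a T cell chemokine gene, called at 3.51 (SE 0.69, adjusted p = 0.0282). Cxcl9 was at 1.07 to 106 CPM in abscopal and 0 to 12 CPM in control libraries. The 5 class II genes summed to 49.5 to 99.7 CPM against 5.75 to 80.9 CPM. The fibroblast markers summed to 69.0 to 2457 CPM against 15.5 to 676 CPM, while the leukocyte markers stayed near 0, at 0 to 1.07 CPM against 0 to 1.69 CPM. Their part in the pattern was not tested.

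Histotripsy-treated CD45- tumors at day 7 were spread too widely to place the members. H2-K1 was at 119, 209 and 426 CPM in the 3 treated tumors and B2m at 461, 918 and 1699 CPM. Replicate 3 was high and replicate 1 low for most members. Against control, differences ran from -0.35 to 0.20 with 0% of genes called, and against abscopal tumors from -1.25 to -0.21, all 10 below 0, again with 0% called and no member at an unadjusted p under 0.05.

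At day 3, no member passed the test in CD45- cells. Differences ran from -0.20 to 0.20 for treated against control (0.0916% of genes called), from -0.23 to 0.27 for abscopal against control (0%) and from -0.25 to 0.16 for treated against abscopal tumors (0.147%). H2-K1 was at 242, 359, 335 and 266 CPM in control, 117 to 528 CPM (median 244) in treated and 166 to 436 CPM (median 295) in abscopal tumors. Both other groups reached below and above the 4 controls. No member had an unadjusted p under 0.05 in these 3 comparisons.

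In CD45+ cells at day 7, differences ran from -0.60 to 0.19 for treated against control, from -0.62 to 0.36 for abscopal against control and from -0.26 to 0.28 for treated against abscopal tumors. None of the 3 comparisons called any gene by edgeR (0%, 0% and 0%). Tapbp, at 0.36 (SE 0.17) in abscopal tumors, was the 1 member with an unadjusted p under 0.05. Tap2 had the lowest values of the treated and abscopal comparisons with control, at -0.60 and -0.62, with SEs of 0.46 and 0.44.

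**Figure D3:**
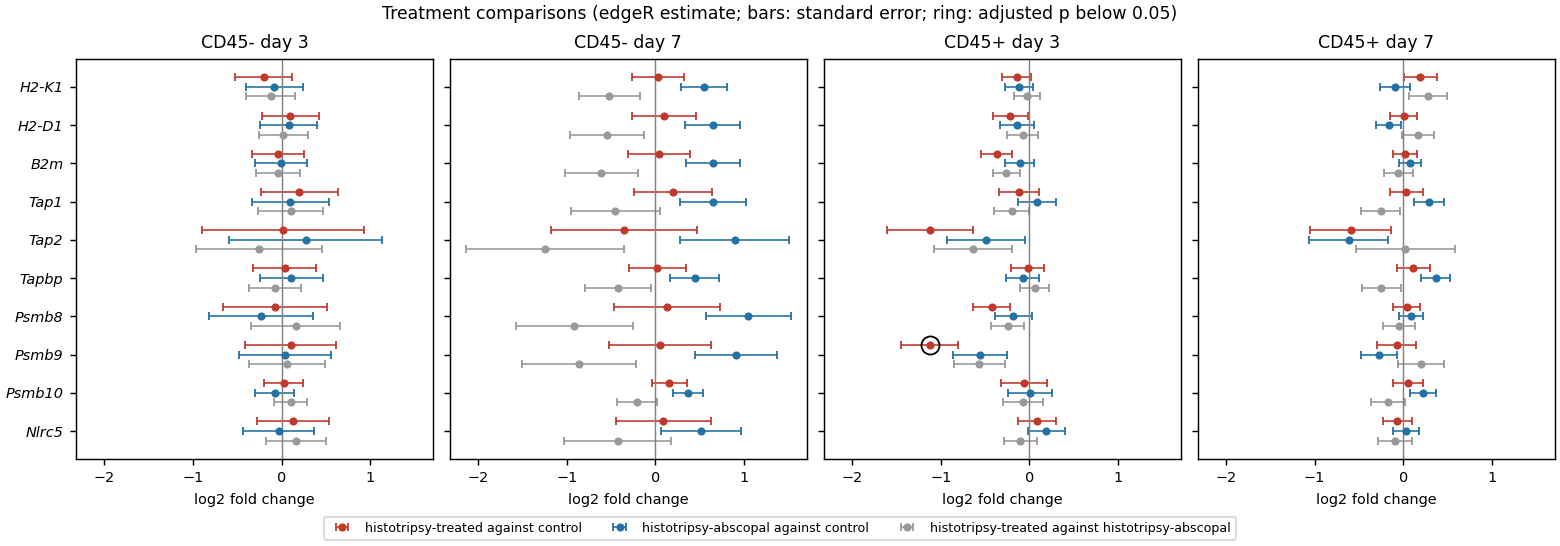
Log2 difference of each gene for the 3 treatment comparisons in each fraction and day, with the standard error of the edgeR estimate; red, treated against control; blue, abscopal against control; gray, treated against abscopal; a ring marks an adjusted p below 0.05. The ring is on Psmb9 in CD45+ cells at day 3 (-1.12), and the blue points of CD45- cells at day 7 are all above 0.

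Whether treatment effects differed between fractions or days was tested as an interaction. Between CD45+ and CD45- cells, no member was called for treated tumors at day 3 (1.91% of genes called) or day 7 (0%), nor for abscopal tumors at day 3 (0%) or day 7 (0.0622%). The abscopal effect at day 7 was lower in CD45+ cells for all 10, from -1.47 to -0.09, with 2 at an unadjusted p under 0.05. In the other 3 of these tests no member had an unadjusted p under 0.05, and DESeq2 called none in any. H2-Q7 was called in that test at -3.51 (SE 0.68, adjusted p = 0.0317), but in CD45- cells it was at 0 to 8.78 CPM at day 7. In the edgeR fit without the filter on low counts, Psmb9 was called for the abscopal effect at day 7.

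Between days, no member was called for treated (0%) or abscopal (0.00866%) effects in CD45- cells, nor for treated (2.7%) or abscopal (0%) effects in CD45+ cells. For control tumors of day 7 against day 3 no member was called either, with 0% of genes called in CD45- and 0.00889% in CD45+ cells, although all 10 were lower at day 7 in CD45- cells, by -0.60 to -0.09. Psmb9, in the treated effect of CD45+ cells, was the 1 member with an unadjusted p under 0.05 in these day comparisons, and DESeq2 called no member. That Psmb9 difference was called by edgeR without the filter on low counts. Among the pathway genes, H2-Q10 at -2.55 (SE 0.65, adjusted p = 0.0271) and Irf8, a regulator of myeloid and interferon-responsive genes, at 0.71 (SE 0.20, adjusted p = 0.0414) were called for the day difference of the treated effect in CD45+ cells.

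The members varied together from tumor to tumor in CD45- cells. With group means removed, all 45 pairs of the 10 genes had a positive Pearson r at both days, from 0.59 to 0.97 (median 0.89) across 18 libraries at day 3 and from 0.49 to 0.98 (median 0.86) across 18 at day 7. Pairs with Tap2, the gene with the fewest counts, gave the lowest r on both days. These correlations describe libraries of the same sequencing core whose labels name no batch, and no p is given for the pairs.

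Single tumors show the pattern. The histotripsy-treated CD45- tumor replicate 4 of day 3 had every member below its group mean, by a mean of -1.65 on the log2 scale, with Psmb8 at 1.10 CPM and B2m at 414 CPM. Treated replicates 3 and 6 of the same day had every member above it, with mean deviations of 0.92 and 0.96 and Psmb8 at 53.1 and 43.6 CPM. Tumors of 1 group were farther apart than the group estimates of that day, which differed by -0.25 to 0.27. Control tumors of day 7 split likewise, with replicates 5 and 6 above by 0.90 and 0.98 in the mean, and replicates 10 and 11 below by -1.08 and -0.99. Replicate 7 was also above (0.79) and replicates 8 and 9 below (-0.14 and -0.35), so neighbors in the numbering fell on the same side. The part of a batch in this was not tested.

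**Figure D4:**
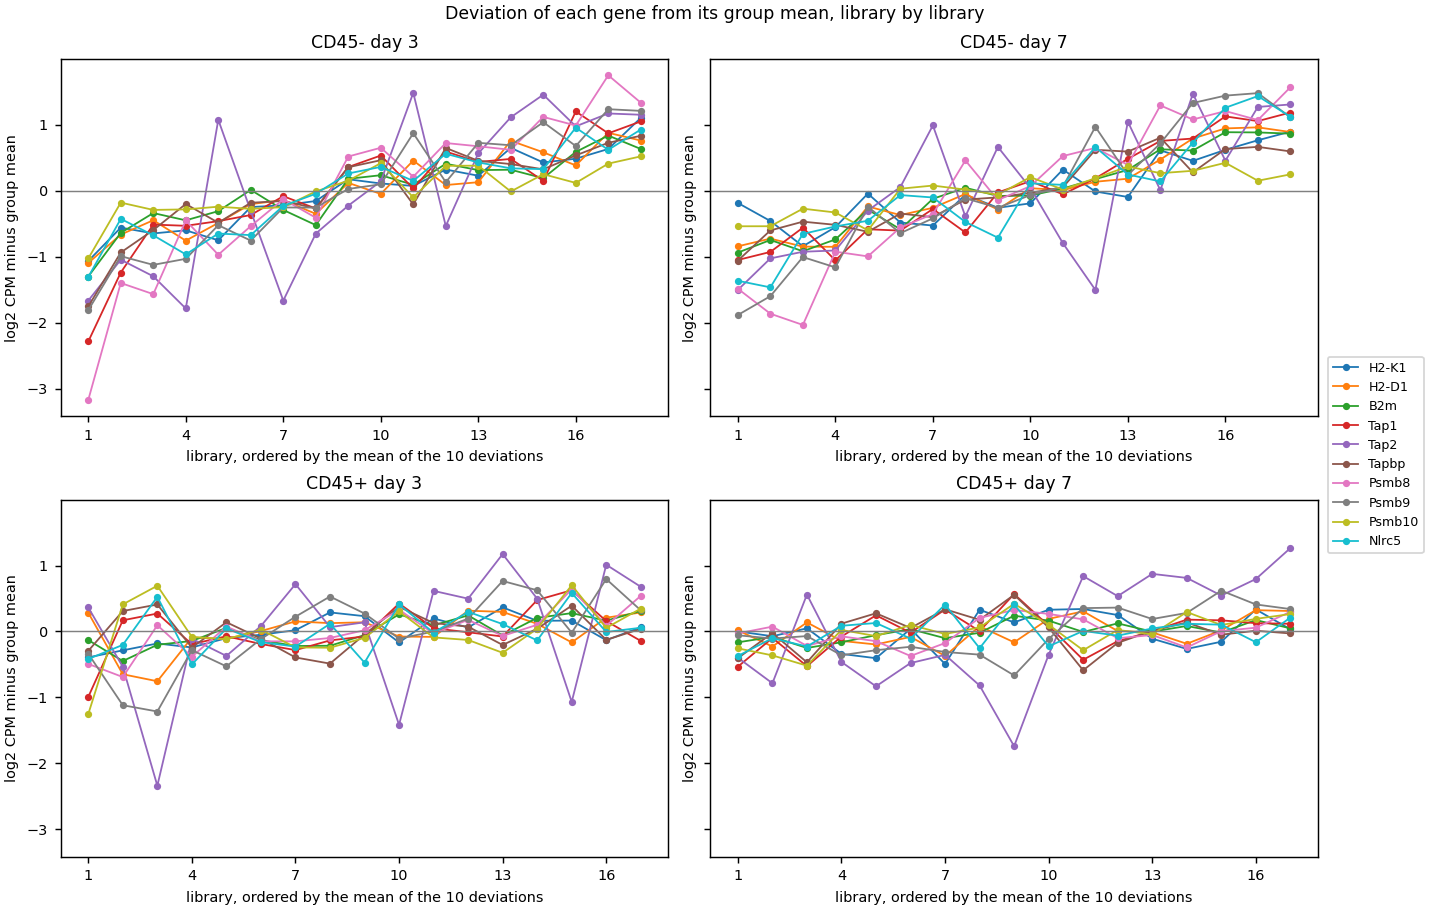
Deviation of each gene from its group mean (log2 CPM) in each library of a table, ordered by the mean of the 10 deviations. The 10 lines climb together in CD45- cells, from a mean of -1.65 in the lowest library of day 3, and cross each other in CD45+ cells.

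**Figure D5:**
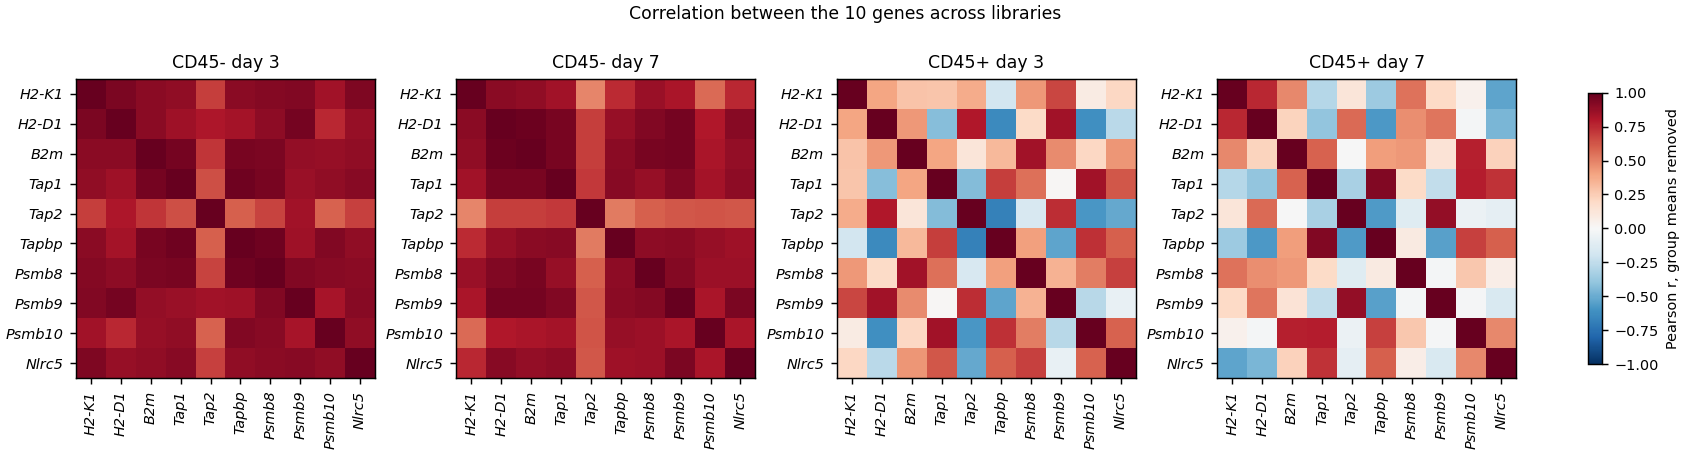
Pearson r between the genes across libraries of each table, group means removed; red, positive; blue, negative. All 45 pairs are positive in CD45- cells at both days (medians 0.89 and 0.86), against 32 and 27 pairs in CD45+ cells (medians 0.34 and 0.14).

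The spread itself was wide in CD45- cells. The within-group SD of log2 CPM was 0.57 to 1.30 at day 3 and 0.54 to 1.19 at day 7 for 9 of the 10 genes, above that of at least 90.7% and 90.5% of genes. Psmb10 was the exception, with 0.41 and 0.34, above 76.4% and 70.1% of genes. The median gene had an SD of 0.28 and 0.26. In CD45+ cells B2m had an SD of 0.24 at day 3 and 0.14 at day 7, below the median gene at 0.36 and 0.34, while Tap2 had 0.98 and 0.89.

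Nlrc5 was tested as a partner of the other 9 members, with permutations within groups over 100000 resamples and adjustment over 76 tests. In CD45- cells all 18 correlations were called positive. Of all other genes tested, 1.1% at day 3 and 1.78% at day 7 had an r with Nlrc5 at or above that of the lowest member called. Pearson r was 0.68 to 0.94 at day 3 and 0.62 to 0.94 at day 7, and Spearman rho was 0.63 to 0.97 and 0.60 to 0.94. The two-sided permutation p, adjusted, ranged from 4e-05 to 0.0259.

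Without the 2 libraries farthest from the median of Nlrc5, r was 0.53 to 0.92 at day 3 and 0.52 to 0.92 at day 7. The weakest in each set was Tap2, which lost the call at both days. B2m, by contrast, then had r = 0.84 with Nlrc5 at day 3 and 0.86 at day 7, and Tap1 had 0.92 and 0.88. In all libraries these were 0.89 and 0.88 for B2m, and 0.91 and 0.89 for Tap1.

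In CD45+ cells fewer of these correlations were called. Nlrc5 had 4 of 9 called at day 3 (Tap1, Tapbp, Psmb8 and Psmb10) and 2 of 9 at day 7 (Tap1 and Tapbp), and no negative one was called. Of all other genes tested, 5.42% and 4.34% reached the r of the lowest member called. By Spearman rho, 2 were called at day 3 (Tap1 and Psmb8) and 1 at day 7 (Tap1). Tap1 was at r = 0.62 (rho 0.58) and 0.72 (rho 0.71). Not called were Tap2 at r = -0.51 and -0.09, Psmb9 at -0.08 and -0.15, H2-D1 at -0.27 and -0.45, and H2-K1 at 0.21 at day 3 and -0.53 at day 7 (rho -0.52, adjusted permutation p = 0.0545). Without the 2 libraries farthest from the median of Nlrc5, calls remained for 1 of 4 at day 3 (Psmb8) and 0 of 2 at day 7, so the rest depended on those libraries. Tap1 was then at r = 0.47 and 0.52, and B2m at day 3 was newly called at r = 0.56. The members formed no single block, since 32 of 45 pairs were positive at day 3 (median r 0.34) and 27 of 45 at day 7 (median 0.14). Tap1 and Tapbp were at r = 0.69 and 0.92, and Tap2 and Psmb9 at 0.74 and 0.88. Across these pairs the sign turned, with Tap2 and Tapbp at -0.68 and -0.56.

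The ribosomal RNA share moved with several members in CD45+ cells, with group means removed. At day 3 and day 7 its r was 0.58 and 0.68 with Nlrc5, 0.21 and 0.51 with Tap1, and 0.30 and 0.54 with Tapbp. It was -0.35 and -0.84 with H2-K1, -0.59 and -0.67 with H2-D1, -0.62 and -0.14 with Tap2, and -0.49 and -0.21 with Psmb9. Total counts had r = -0.57 and -0.52 with Nlrc5. The part of these measures in the correlations with Nlrc5 was not tested.

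Among the 5 genes whose pattern was most like the mean of the 10 members, of 8643 genes tested in all 4 tables, were Ifi47 (mean r 0.85 over the 4 tables), Gbp4 (0.85), Gbp2 (0.83) and Gbp3 (0.83). Ifi47 encodes an interferon-inducible GTPase and the Gbp genes encode guanylate-binding proteins. In CD45- cells the mean of the members had r = 0.96 with the mean of the 16 interferon-stimulated genes at day 3 and 0.93 at day 7, and 0.91 and 0.90 with the class II genes. In CD45+ cells these were lower, at 0.59 and 0.63 with the interferon-stimulated genes and 0.11 and -0.18 with the class II genes.

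Other measures of a CD45- library followed the members less. The r with the melanoma markers was -0.15 and -0.14, with total counts -0.13 and -0.16, with the ribosomal RNA share 0.34 and 0.21, and with the fibroblast markers 0.49 and 0.54. Without the libraries whose fibroblast markers summed to over 1000 CPM, a limit set after the values were seen, the median r of the pairs was 0.88 in 12 libraries of day 3 and 0.86 in 15 of day 7. Leukocyte markers summed to 0 to 1.48 CPM at day 3 and 0 to 1.69 CPM at day 7 in these cells. In CD45+ cells, the mean of the members had r = 0.77 and 0.51 with the natural killer (NK) cell markers and 0.45 and 0.49 with the T cell markers. The r was -0.51 at both days with the B cell markers, -0.33 and -0.16 with the neutrophil markers, -0.29 and -0.08 with the macrophage markers, and 0.39 and -0.08 with the dendritic cell markers. With the melanoma markers it was -0.51 and 0.07. The part of these cell types in the members' levels was not tested.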

How the data were processed

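Flow-sorted CD45+ and CD45- cells were profiled by QuantSeq, a 3′ end RNA method, with 101 bp single-end reads. Per the labels and the study's methods, the authors trimmed reads (Trim Galore 0.5.0), aligned them to GRCm38 (STAR 2.6.0), collapsed reads by their molecular identifiers and assigned them to genes with featureCounts; the deposited values are raw counts per gene, 1 table for each fraction and day. An unnamed total line was left out, 0 columns lacked a sample, and no 2 libraries of a group agreed within sampling noise (lowest chi-square per degree of freedom 2.09 over 208 pairs).

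Counts were tested with edgeR 4.0.16 (quasi-likelihood, TMM factors, filterByExpr with a minimum count of 10 and total of 15, Benjamini-Hochberg over all genes tested, threshold 0.05). All groups of a table were fitted together by group; the fraction and day comparisons joined 2 tables. CPM used library totals; log2 CPM for correlations used a prior count of 2. Of the 76 correlations adjusted together, 36 are with Nlrc5; those with another gene are not reported here. Tests were run on simulated counts first. R 4.3.3, limma 3.58.1, DESeq2 1.42.0 and Python 3.11.15 were used. Counting intervals cover counting error only.

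The members and gene lists were chosen with earlier results of these data known. Named were all members, at most 2 called genes per direction and comparison from the pathway lists, and the 5 genes most like the members; others named as examples were chosen after their values were seen. Same-numbered libraries were not paired in the main fits. In 1 of 18 pairs of groups, the fractions of abscopal tumors at day 7, every r was above 0.1 (0.11 to 0.31 over 4 pairs). At day 3 every r between fractions was above 0, from 0.02 to 0.40. Where a group has fewer CD45+ libraries, as in treated tumors of day 3, the numbers of the fractions can run out of step. So this check cannot show that fractions do not share a tumor. With treatment and replicate number as a block, 10 of 10 members were called between fractions at both days. Alternatives were DESeq2, limma-voom, library totals, no filter, a replicate block, 2 groups only, deeper libraries only, another prior count and leaving out each library.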

Additional observations from a re-analysis of the deposited data

Results flagged for a closer look

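In 4 of the 90 groups of 4 to 10 libraries examined, 1 library stood farther from the others than Dixon's 95% critical value, and chance gives about 1 in 20. Tap2 reached 6.89 CPM (16 counts) in the CD45- control replicate 3 of day 3, where the next library was at 1.23 CPM. Tapbp reached 107 CPM in the CD45- control replicate 2 of day 3, against 65.1 CPM in the next. Psmb8 was lowest in the CD45+ histotripsy-abscopal replicate 4 of day 3, at 164 CPM against 208 CPM. Psmb10 was highest in the CD45+ histotripsy-abscopal replicate 1 of day 3, at 212 CPM against 136 CPM. None of the 4 values belongs to the Psmb9 comparison, and no explanation was tested.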

How the results depend on the processing

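Under another test, scaling, filter or block, 122 recomputed counts of calls equaled the main count or, where that was above 0, lay near it. A further 7 moved beyond that, and no called value turned its direction. In CD45+ cells at day 3, treated against control tumors had 2 members called with library totals (B2m and Psmb9), 2 without a filter on low counts and 2 with the replicate block (both times Tap2 and Psmb9), and 0 to 1 with 1 library left out. Without that filter, 4 members were called in CD45- abscopal tumors of day 7 (H2-K1, H2-D1, B2m and Psmb8), and 1, Psmb9, for treated against abscopal tumors in CD45+ cells of day 3, for the abscopal difference between fractions at day 7 and for the treated difference between days in CD45+ cells. The cause was not tested. The replicate block changed no other member call. Same-numbered libraries were alike throughout in 1 of 18 pairs of groups. The numbers may also not mark the same tumor, so the block is a check only. Psmb9 was called with DESeq2, limma-voom and the 2 groups alone. Of the 24 called correlations with Nlrc5, 17 remained without the 2 libraries farthest from its median and 1 more was called; in CD45- cells the lost ones were Tap2 at r = 0.53 and 0.52. With 1 library left out, 2 medians that were not tested moved, from -0.05 to -0.22 (CD45+ day 7, treated against abscopal, without treated replicate 3) and, changing sign, from -0.09 to 0.67 (treated difference between fractions, day 7, without CD45- treated replicate 3). Groups of 3 or 4 libraries and Tap2's low counts limit what could be detected.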
